A study of Homo sapiens with 6 samples.

Results

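The genes described here encode core components of the spliceosome, the RNA-protein machine that removes introns from pre-mRNA. They were taken from the deposited gene table as every gene name carrying the pathway entry Spliceosome, without the HNRNP, SRSF and HSPA names. This left 107 of the 27394 gene names in the table, after 22 of 129 names with the entry were dropped by that rule. All 107 passed the filter on low counts and were tested. Their levels were compared between Huh7 cells with a short hairpin RNA (shRNA) against CTSV, labelled as CTSV knockdown, and Huh7 cells with a control shRNA, labelled as WT, with 3 libraries in each group. Huh7 is a human line from a hepatocellular carcinoma, and CTSV is the gene of cathepsin V, a cysteine protease of the lysosome. The sources used here do not say how many hairpins were used, their sequence, or whether the cells were a clone or a pool. They also do not state that the libraries of a group are separate cultures, so a p-value covers the spread among 3 libraries that may be technical repeats.

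The spliceosome assembles on each intron from small nuclear ribonucleoproteins (snRNPs), each named for its RNA (U1, U2, U4, U5 and U6), and from many proteins that join and leave during the reaction. U1 binds the 5′ splice site, and U2 binds the branch site with the help of the U2AF and SF3 proteins. The U4/U6.U5 tri-snRNP then joins, the PRP19 complex stabilises the active centre, and helicases drive each rearrangement. U1, U2, U4 and U5 share a ring of 7 Sm proteins, and U6 carries a related ring of 7 LSm proteins. The exon junction complex (EJC) and the TREX export complex are loaded on the mRNA during or around splicing.

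The promoters of the members are shown first because a sequence feature that their selection did not use was more frequent in them than in the wider sets given below. Upstream windows of 250 bases were taken from the RefSeq promoter table for GRCh38.p14, in which 92 of the 107 members had an entry. The letters CCGGAAG, a core bound by ETS factors, were searched on both strands and stood in 45 of 92 members, or 48.9%. They stood in 18.2% of the windows of tested protein-coding genes at a mean of 10 CPM (read counts scaled to library size) or more, and in 8.82% of all 27305 windows. NRF1 letters, GCGCA and GCGC with 1 free base between them on either strand, stood in 19.6% of the members, against 12.2% of those protein-coding genes and 5.53% of all windows. E-box letters, CACGTG, stood in 7.61% of the members and 9.41% of the protein-coding genes. CCAAT letters stood in 38.0% and 36.0%, and TATAAA letters in 6.52% and 4.75%. The windows printed here belong to 3 members that fell in the CTSV shRNA libraries (SNRPB, PRPF19 and LSM4) and to 2 that rose (LSM8 and DDX39B). They were chosen after their values were seen. They lie at chr20:2470790-2471039 (SNRPB, minus strand), chr11:60906586-60906835 (PRPF19, minus strand), chr19:18323077-18323326 (LSM4, minus strand), chr7:118183914-118184163 (LSM8, plus strand) and chr6:31542004-31542253 (DDX39B, minus strand). Each is given 5′ to 3′ and ends at the base before the RefSeq start, and the deposited gene spans reach into these windows because other transcripts start further upstream. Capitals mark matches to the ETS, NRF1 or E-box letters on either strand.
SNRPB: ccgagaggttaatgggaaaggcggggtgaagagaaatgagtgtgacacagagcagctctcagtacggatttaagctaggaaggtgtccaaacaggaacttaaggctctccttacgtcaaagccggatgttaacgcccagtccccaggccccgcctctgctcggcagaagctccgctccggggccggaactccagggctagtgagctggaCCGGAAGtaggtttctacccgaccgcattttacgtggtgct
PRPF19: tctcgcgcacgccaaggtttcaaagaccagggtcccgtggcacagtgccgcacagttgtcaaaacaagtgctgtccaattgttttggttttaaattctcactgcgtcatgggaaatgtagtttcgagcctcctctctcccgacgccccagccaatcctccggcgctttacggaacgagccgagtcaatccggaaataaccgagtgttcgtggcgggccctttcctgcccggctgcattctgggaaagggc
LSM4: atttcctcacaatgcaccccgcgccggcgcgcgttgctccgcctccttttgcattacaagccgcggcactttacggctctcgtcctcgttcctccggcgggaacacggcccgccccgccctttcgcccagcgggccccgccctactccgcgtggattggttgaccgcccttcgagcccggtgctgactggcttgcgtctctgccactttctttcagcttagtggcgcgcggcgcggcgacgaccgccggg
LSM8: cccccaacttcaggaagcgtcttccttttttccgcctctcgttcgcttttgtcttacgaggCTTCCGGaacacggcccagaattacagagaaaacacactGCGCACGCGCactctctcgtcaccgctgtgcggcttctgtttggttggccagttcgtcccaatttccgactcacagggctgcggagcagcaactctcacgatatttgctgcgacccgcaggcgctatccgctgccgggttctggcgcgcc
DDX39B: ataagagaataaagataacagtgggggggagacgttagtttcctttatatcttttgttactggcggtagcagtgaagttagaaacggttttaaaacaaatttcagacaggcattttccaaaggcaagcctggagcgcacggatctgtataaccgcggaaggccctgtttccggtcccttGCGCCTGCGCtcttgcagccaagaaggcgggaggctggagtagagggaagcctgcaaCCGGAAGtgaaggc
SNRPB holds 1 ETS match close to the start. LSM8 and DDX39B each hold an ETS match and an NRF1 match, and PRPF19 and LSM4 hold none. The ETS letters stood in 22 of 50 members that fell, 2 of 5 that rose and 21 of 37 that were not called. These are matches of letters in one window, and no binding was measured.

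CTSV itself was checked first. It lies on the minus strand at chr9:97029679-97039643 (hg38) and had 18.4, 16.0 and 16.3 CPM in the CTSV shRNA libraries, against 42.3, 44.5 and 41.0 CPM in the control libraries. Its log2 fold change was -1.34 with a standard error (SE) of 0.0958 (edgeR adjusted p = 7.2e-14), so the libraries match their labels. CPM values are normalised by the TMM method, and every fold change divides CTSV shRNA by control shRNA. Calls need an adjusted p under 0.05, and "rose" and "fell" are used of called genes only. Library totals lay between 16280506 and 17930442 counts in the CTSV shRNA libraries and between 16258803 and 18106207 counts in the control libraries. Mitochondrially encoded genes took 11.6% ± 0.208 of counts in CTSV shRNA libraries and 9.23% ± 0.245 in control libraries (SD, n = 3 each). The summed level of 6 hepatocyte markers was 29343 to 30319 CPM in CTSV shRNA libraries and 22766 to 23499 CPM in control libraries, with 3 markers called higher and 1 lower. AFP, ALB and SERPINA1, secreted liver proteins, were the 3 higher ones. Of the fibroblast list, 5 of 6 genes were in the table, and they summed to 62.4 to 69.8 CPM, against 45.4 to 51.9 CPM in control libraries, with COL1A2 and LUM called higher. LUM was at the limit (edgeR adjusted p = 0.049) and was not called with length and GC offsets (edgeR adjusted p = 0.58). Of the endothelial list only PECAM1 was in the table, at 17.6 to 19.5 CPM, against 16.4 to 21.2 CPM in control libraries. Of the leukocyte list, 3 of 6 genes were in the table, and they summed to 57.2 to 62.8 CPM, against 74.1 to 82.4 CPM in control libraries, with LYZ, which encodes lysozyme, called lower. The other listed markers were not analysed here. The part of these differences in the results on splicing genes was not tested. All libraries are of the Huh7 line, so the lists were not read as shares of different cell types. In bulk libraries a change in some of the cells and a change in all of them cannot be told apart.

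In the CTSV shRNA libraries, 56 of the 107 spliceosome genes fell, 5 rose and 46 were not called. Over all 15968 genes tested, 21.6% were called lower and 18.7% higher. Spliceosome genes are mostly well expressed, so the nearer background is the 9083 protein-coding genes at a mean of 10 CPM or more, of which 33.9% were called lower and 18.6% higher. Among the 100 members at that level, 56 fell and 4 rose. The median log2 fold change of the members was -0.22, with 83 of 107 below 0, against 0.02 over all genes tested and -0.07 over those protein-coding genes. In 61 members all 3 CTSV shRNA libraries lay below all 3 control libraries, and in 7 they lay above, against 25.0% and 24.1% of all genes tested. Of the 9083 protein-coding genes at a mean of 10 CPM or more, 3447 lay below in this way and 1986 above. Among the 100 members at that level, 61 lay below and 6 above. The changes were small for a single gene, and the members that fell had log2 fold changes from -0.78 to -0.15. At an unadjusted p under 0.05, edgeR had 6 members higher, the 5 called ones and DDX42, and DESeq2 called 5 higher. The members together took 1.12% ± 0.00704 of all counts in CTSV shRNA libraries and 1.18% ± 0.00238 in control libraries (SD, n = 3 each). All 3 CTSV shRNA libraries were below the controls in this share, and the exact two-sided permutation test gave p = 0.1, the smallest that 3 against 3 libraries allow. In the authors' deposited table, 57 members were lower and 5 higher in CTSV shRNA libraries at an adjusted p under 0.05, against 11.6% and 8.51% of its 27394 names. These sets are unlike in level, because only 15968 of the 27394 names passed the low-count filter used here, and all 107 members did. That table gives control over knockdown, and its sign was opposite to the one used here for all 107.

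**Figure D1:**
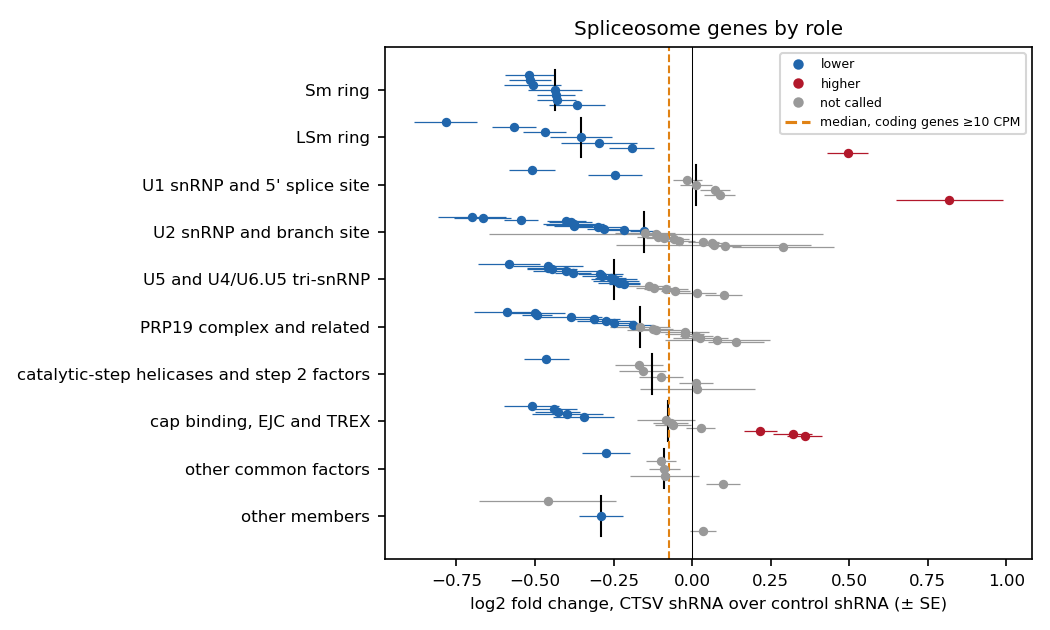
Each point is 1 spliceosome gene, placed by its role along one axis and by its log2 fold change (CTSV shRNA over control shRNA, 3 libraries each, ± SE) along the other, with a black bar at the median of each role and a dashed line at the median of protein-coding genes at 10 CPM or more (-0.07). All 7 Sm genes lie between -0.52 and -0.37, while the U1 genes spread between -0.51 and 0.82.

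The Sm ring fell as a whole. All 7 genes were called lower, with log2 fold changes between -0.52 and -0.37 and a median of -0.44. Of protein-coding genes at 10 CPM or more, 33.9% were lower and 18.6% higher. The median summed exon length of the 7 genes was 1795 bases. Of those protein-coding genes, 63.5% were lower under 2000 bases (median log2 fold change -0.34) and 43.1% at 2000 to 5000 bases (median -0.16). Their products form the ring that is built on each U snRNA in the cytoplasm before the particle returns to the nucleus. SNRPB, which encodes SmB/B′, had 73.6, 66.7 and 68.9 CPM in CTSV shRNA libraries, against 90.8, 109 and 99.4 CPM in control libraries. Its log2 fold change was -0.52 (SE 0.0663, edgeR adjusted p = 6.2e-08), and the highest CTSV shRNA library stayed under the lowest control. SNRPD3, which encodes SmD3, had 105, 93.1 and 90.1 CPM, against 129.6, 133 and 126 CPM in control libraries, a log2 fold change of -0.43. SNRPD1, the partner of SmD2 in the ring, had 68.6, 73.7 and 72.1 CPM, against 93.1, 98.8 and 97.2 CPM in control libraries, a log2 fold change of -0.43. SNRPD2, which encodes SmD2, had 94.4, 76.8 and 71.0 CPM, against 116, 129 and 101 CPM in control libraries, a log2 fold change of -0.52. In each of these genes the groups did not overlap, although the control libraries of SNRPD2 were more spread than those of SNRPD1. SNRPG, SNRPF and SNRPE, which encode the remaining ring proteins, fell by 0.51, 0.44 and 0.37 on the log2 scale, again without overlap between the groups. Over all genes tested, the CTSV shRNA libraries all lay below the controls in 25.0%. The 7 genes together took 0.0436% ± 0.00352 of counts in CTSV shRNA libraries and 0.0585% ± 0.00321 in control libraries (SD, n = 3 each; exact permutation p = 0.1, the smallest possible). SNRPN, a close paralog of SNRPB, was not analysed here.

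The LSm ring was split. LSM2 to LSM7 all fell and LSM8 rose. The shares lower and higher were 85.7% and 14.3%, against 33.9% and 18.6% of protein-coding genes at 10 CPM or more. LSM8 is the member that makes the nuclear, U6-binding ring, while LSM1 takes its place in the cytoplasmic ring that takes part in mRNA decay. LSM8 had 82.3, 83.3 and 78.3 CPM in CTSV shRNA libraries, against 59.2, 55.9 and 57.7 CPM in control libraries. Its log2 fold change was 0.50 (SE 0.0651, edgeR adjusted p = 9.9e-08), and every CTSV shRNA library was well above every control. LSM4 had 71.6, 73.1 and 61.6 CPM, against 97.3, 112 and 96.1 CPM in control libraries, a log2 fold change of -0.57 (SE 0.0688, edgeR adjusted p = 2e-08). LSM7 had 31.7, 26.0 and 23.9 CPM, against 47.5, 52.8 and 39.9 CPM in control libraries, and its log2 fold change of -0.78 was the lowest of all 107 members. LSM3 had 57.3, 57.5 and 54.2 CPM, against 77.3, 83.9 and 72.6 CPM in control libraries, a log2 fold change of -0.47. All these ring genes are shared by both LSm rings except LSM8, and none of LSM3, LSM4 and LSM7 overlapped between the groups. LSM2 fell by 0.35, LSM6 by 0.30 and LSM5 by 0.19 on the log2 scale. The LSM6 groups overlapped (20.6, 15.8 and 14.2 CPM, against 20.4, 21.2 and 20.4 CPM in control libraries), and its edgeR adjusted p was 0.048. LSM5 had an edgeR adjusted p of 0.03 and was no longer called without CTSV shRNA replicate 2 (0.092), CTSV shRNA replicate 3 (0.0997) or control replicate 2 (0.12). LSM6 was called only with all 6 libraries or without CTSV shRNA replicate 1, and its edgeR adjusted p was 0.074 to 0.29 when any other library was left out. Its log2 fold change was -0.18 without CTSV shRNA replicate 3.

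LSM1, which is not in the pathway entry, had 10.2, 10.1 and 9.35 CPM in CTSV shRNA libraries, against 13.3, 16.0 and 12.0 CPM in control libraries, and fell by 0.49 on the log2 scale (edgeR adjusted p = 0.0055). The ratio of LSM8 to LSM1 counts was therefore 8.10, 8.28 and 8.37 in CTSV shRNA libraries and 4.44, 3.49 and 4.80 in control libraries. The ratio of LSM8 to LSM7 counts was 2.60, 3.20 and 3.28, against 1.25, 1.06 and 1.45 in control libraries. These ratios were chosen after the values were seen, and they need no scaling between libraries. LSM8 was above, and LSM1 and LSM7 below, their controls in every CTSV shRNA library. Ratios without overlap were therefore fixed by this choice and add nothing to the results of the single genes.

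**Figure D2:**
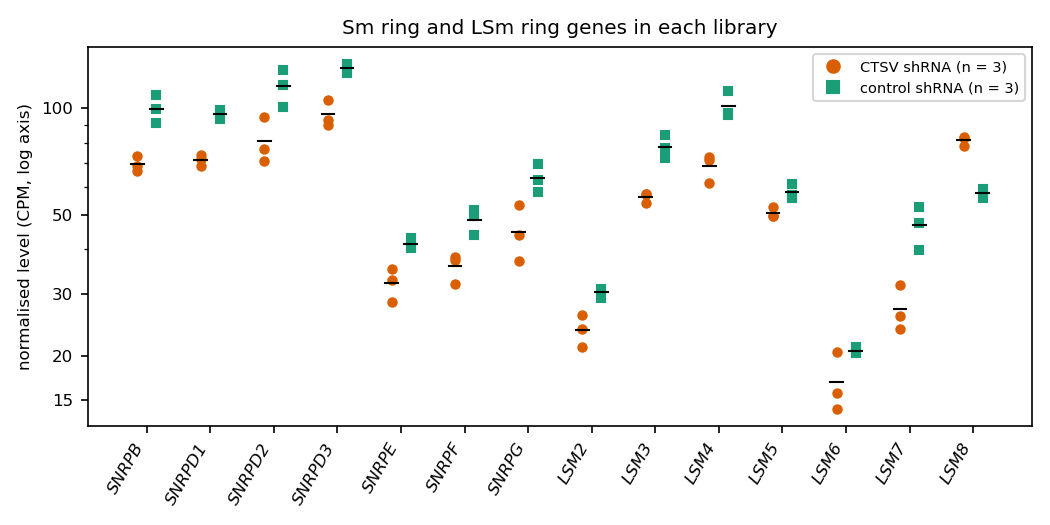
Levels of the 7 Sm genes and the 7 LSm genes in each library (CPM, log axis), with CTSV shRNA libraries left of control libraries for each gene and a black bar at each group's mean. LSM8 is the ring gene whose CTSV shRNA points (78.3 to 83.3 CPM) lie above its control points (55.9 to 59.2 CPM).

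The U1 genes did not move together. Of 7 members, 2 fell, 1 rose and 4 were not called, with a median log2 fold change of 0.01. The shares lower and higher were 28.6% and 14.3%, against 33.9% and 18.6% of protein-coding genes at 10 CPM or more. SNRPC, which encodes the U1-C protein, which contacts the 5′ splice site duplex, had 47.2, 45.7 and 43.5 CPM in CTSV shRNA libraries, against 63.7, 68.0 and 62.5 CPM in control libraries (log2 fold change -0.51, edgeR adjusted p = 4.1e-07). SNRPA, which encodes the U1-A protein, fell by 0.25 (35.0, 33.2 and 35.4 CPM, against 37.5, 45.0 and 40.6 CPM in control libraries; edgeR adjusted p = 0.02). It was not called without CTSV shRNA replicate 2 (edgeR adjusted p = 0.082) or without control replicate 2 (edgeR adjusted p = 0.13). SNRNP70, the U1-70K gene and the U1 gene with most counts per kilobase of exon, had 275, 261 and 268 CPM, against 248, 269 and 248 CPM in control libraries, and its groups overlapped. The 3 proteins particular to the U1 particle thus differed in their transcripts, with SNRPC furthest from its control level. PRPF40B, a homolog of the yeast U1 protein Prp40, had 9.01, 12.4 and 11.4 CPM, against 5.44, 7.40 and 5.79 CPM in control libraries. Its log2 fold change of 0.82 (SE 0.17, edgeR adjusted p = 0.00018) was the highest of all members, at a low level. RBM25 was not called.

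In the U2 and branch-site group, 12 of 24 genes fell and none rose, with a median log2 fold change of -0.15. Among protein-coding genes at 10 CPM or more, 33.9% were lower and 18.6% higher, with a median of -0.07. The heterotrimer SF3A and the complex SF3B anchor U2 at the branch site. SF3A3 had 99.3, 103 and 99.6 CPM in CTSV shRNA libraries, against 147, 146 and 147 CPM in control libraries (log2 fold change -0.55, SE 0.0535, edgeR adjusted p = 1.8e-10). It was among the tightest separations in the group, with each set of libraries within a few CPM. SF3A1 fell by 0.38, and SF3A2 was not called (log2 fold change -0.15). SF3B5, a small SF3B subunit, had 33.4, 29.8 and 26.0 CPM, against 45.5, 51.0 and 45.0 CPM in control libraries, a log2 fold change of -0.67. PHF5A, which forms part of the branch-point pocket with SF3B1, had 20.8, 18.2 and 16.5 CPM, against 27.4, 34.3 and 28.5 CPM in control libraries, a log2 fold change of -0.70. SNRPB2, the U2B″ gene, had 74.5, 73.0 and 68.9 CPM, against 98.8, 92.0 and 94.5 CPM in control libraries, a log2 fold change of -0.40. None of SF3B5, PHF5A and SNRPB2 overlapped between the groups. SF3B4 fell by 0.38, while SF3B1, SF3B2, SF3B3 and SF3B6 were not called, with log2 fold changes of 0.06, -0.11, -0.06 and -0.11. With length and GC offsets SF3B2, SF3B3 and SF3B6 were called lower, at -0.19, -0.19 and -0.23, and SF3B1 was at -0.09 (edgeR adjusted p = 0.051). In that fit the median of protein-coding genes at a mean of 10 CPM or more was -0.16.

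SF3B1, the large scaffold of SF3B and a gene often mutated in myelodysplastic syndrome, had the highest CPM of all members. Its levels were 699, 746 and 731 CPM in CTSV shRNA libraries, against 697, 679 and 706 CPM in control libraries, and the groups overlapped. The ratio of SF3B1 to SF3B5 counts was 20.9, 25.0 and 28.1 in CTSV shRNA libraries and 15.3, 13.3 and 15.7 in control libraries, a pair chosen after the values were seen. Of the other branch-site proteins, PUF60, CHERP, SMNDC1, U2AF2, SNRPA1 and DHX15 fell, with log2 fold changes from -0.39 to -0.15. U2AF2 encodes the large U2AF subunit, which binds the polypyrimidine tract. U2AF1, its small partner at the 3′ splice site, had only 1.88, 3.33 and 4.40 CPM, against 3.64, 1.68 and 3.86 CPM in control libraries. U2AF1 and its annotated copy U2AF1L5 share 94.3% of U2AF1's 50-base stretches, so reads can be lost or split between them and both values are uncertain. U2AF1L5 had 8.53, 10.0 and 12.6 CPM, against 9.08, 7.58 and 8.85 CPM in control libraries, and neither was called.

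The U5 and U4/U6.U5 tri-snRNP group had 13 of 19 genes lower, none higher, and a median log2 fold change of -0.25. This was 68.4% lower, against 33.9% lower and 18.6% higher among protein-coding genes at 10 CPM or more. EFTUD2, the GTPase of U5, had 87.5, 88.8 and 86.8 CPM in CTSV shRNA libraries, against 109, 119.6 and 113 CPM in control libraries (log2 fold change -0.38, edgeR adjusted p = 1.5e-06). PRPF8, the scaffold that holds the catalytic RNA, fell by 0.22 (303, 319 and 332 CPM, against 359.6, 350.5 and 399 CPM in control libraries). SNRNP200, the helicase that unwinds U4 from U6, had 515, 526 and 547 CPM, against 551, 512 and 585 CPM in control libraries, and was not called. With the offsets for exon length and GC content described with the length results, it was called lower, with a log2 fold change of -0.14 (edgeR adjusted p = 0.0027). This was near the median of -0.16 that protein-coding genes at a mean of 10 CPM or more had in that fit. EFTUD2 and PRPF8 had groups that did not overlap, while those of SNRNP200 overlapped. PRPF4, a U4/U6 protein, had 58.9, 64.2 and 59.6 CPM, against 78.4, 90.0 and 82.4 CPM in control libraries, a log2 fold change of -0.46. SNU13, which binds the U4 5′ stem-loop and also belongs to box C/D snoRNPs, had 38.7, 43.5 and 44.8 CPM, against 52.8, 63.1 and 57.4 CPM in control libraries, a log2 fold change of -0.45. SNRNP27, a tri-snRNP protein, had 23.8, 21.3 and 19.8 CPM, against 33.1, 33.5 and 30.3 CPM in control libraries, a log2 fold change of -0.58. The groups of all 3 genes stood apart. PPIH, PRPF31, ZMAT2, TXNL4A, DDX23, SNRNP40, SART1 and PRPF38A fell with log2 fold changes from -0.46 to -0.23, and USP39, WBP11, PRPF3, PRPF38B and PRPF6 were not called.

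Among the PRP19 complex and the proteins that join with it, 8 of 17 genes fell and none rose (median log2 fold change -0.17). This was 47.1% lower, against 33.9% lower and 18.6% higher among protein-coding genes at 10 CPM or more. PRPF19, the ubiquitin ligase that names the complex, had the most counts per kilobase of exon of all members. It had 209, 218 and 203 CPM in CTSV shRNA libraries, against 301, 299 and 286 CPM in control libraries (log2 fold change -0.49, SE 0.0478, edgeR adjusted p = 1.3e-10). This was the smallest adjusted p among the members, and the groups lay far apart relative to their spread. SYF2 had 32.2, 27.1 and 21.3 CPM, against 43.2, 40.1 and 37.6 CPM in control libraries, a log2 fold change of -0.59. BUD31 had 27.4, 23.0 and 26.7 CPM, against 37.6, 37.7 and 33.7 CPM in control libraries, a log2 fold change of -0.50. CCDC12 had 28.1, 26.4 and 25.0 CPM, against 35.2, 38.7 and 29.8 CPM in control libraries, a log2 fold change of -0.38. The groups of SYF2, BUD31 and CCDC12 did not overlap, although the lowest CCDC12 control was close to its highest CTSV shRNA library. CTNNBL1, PPIL1, SNW1 and CDC5L, a core subunit of the complex, fell with log2 fold changes from -0.31 to -0.19. CWC15, CRNKL1, BCAS2, RBM22, AQR, PLRG1, XAB2, ISY1 and PPIE were not called.

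Most helicases and factors of the catalytic steps were not called. Of 6 genes, 1 fell, none rose, and the median log2 fold change was -0.13. This was 16.7% lower, against 33.9% lower and 18.6% higher among protein-coding genes at 10 CPM or more. SLU7, a factor for the second step, had 65.2, 53.2 and 55.9 CPM in CTSV shRNA libraries, against 82.9, 79.7 and 77.8 CPM in control libraries (log2 fold change -0.46, edgeR adjusted p = 1.7e-06). DHX38, the human PRP16 helicase, had 139, 144 and 139 CPM, against 138, 145 and 134 CPM in control libraries, with overlapping groups. DHX16, DHX8, CDC40 and PRPF18 were not called either.

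Of the 12 genes of cap binding, the EJC and TREX, 5 fell and 3 rose, with a median log2 fold change of -0.08. The shares lower and higher were 41.7% and 25.0%, against 33.9% and 18.6% of protein-coding genes at 10 CPM or more. In the EJC, EIF4A3, the helicase that clamps the RNA, had 57.5, 60.5 and 53.0 CPM in CTSV shRNA libraries, against 77.8, 82.5 and 69.6 CPM in control libraries (log2 fold change -0.43, edgeR adjusted p = 7.5e-06). MAGOH had 21.8, 24.4 and 20.5 CPM, against 34.0, 30.4 and 23.3 CPM in control libraries, fell by 0.40 and overlapped between the groups. Without control replicate 1 its edgeR adjusted p was 0.074. Its paralog MAGOHB had 25.2, 25.3 and 22.5 CPM, against 32.2, 32.1 and 28.3 CPM in control libraries, and fell by 0.35. The annotated transcripts of the 2 paralogs share no identical 50-base stretch, but how reads were assigned between them is not stated. RBM8A, whose product Y14 pairs with MAGOH, had 33.6, 28.0 and 33.4 CPM, against 33.7, 34.7 and 32.3 CPM in control libraries, and was not called. ACIN1, an EJC-associated protein, had 395, 368 and 359 CPM, against 363, 368 and 369 CPM in control libraries, with overlapping groups. The cap-binding genes NCBP1 and NCBP2 were not called.

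TREX genes went in both directions. DDX39B, the export helicase also known as UAP56, had 167, 169 and 162 CPM in CTSV shRNA libraries, against 125, 123 and 141 CPM in control libraries (log2 fold change 0.36, SE 0.0552, edgeR adjusted p = 2e-06). THOC1 had 95.2, 100.3 and 106 CPM, against 85.9, 78.0 and 77.6 CPM in control libraries, and rose by 0.32 on the log2 scale. THOC2, the scaffold of the THO complex, had 197, 183 and 193 CPM, against 173, 157 and 162 CPM in control libraries, and rose by 0.22. In these 3 genes all CTSV shRNA libraries lay above all controls. THOC3 had 45.8, 47.7 and 50.8 CPM, against 65.9, 67.5 and 62.2 CPM in control libraries, a log2 fold change of -0.44. ALYREF, the adaptor that hands mRNA to the export receptor, had 26.9, 25.8 and 29.5 CPM, against 38.6, 39.7 and 38.8 CPM in control libraries, a log2 fold change of -0.51. THOC3 and ALYREF were below the controls in every library. The count ratio of DDX39B to ALYREF was 6.23, 6.56 and 5.49 in CTSV shRNA libraries, against 3.24, 3.10 and 3.62 in control libraries. The ratio of THOC1 to THOC3 was 2.08, 2.10 and 2.09, against 1.30, 1.16 and 1.25 in control libraries. Both pairs were chosen after their values were seen. With offsets for exon length and GC content, described with the length results, THOC2 had a log2 fold change of 0.03 (edgeR adjusted p = 0.62) and was not called.

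**Figure D3:**
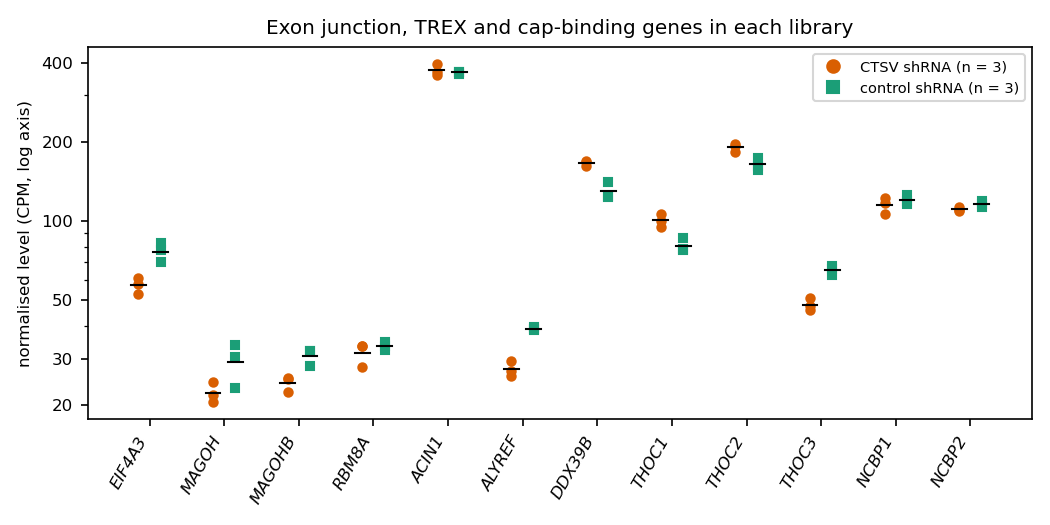
Levels of the EJC, TREX and cap-binding genes in each library (CPM, log axis), CTSV shRNA left of control for each gene, with a black bar at each group's mean. DDX39B (162 to 169 CPM, against 123 to 141 CPM in control libraries), THOC1 and THOC2 lie higher in CTSV shRNA libraries, and EIF4A3, THOC3 and ALYREF lie lower.

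Of the remaining members, PCBP1, a poly(C)-binding protein, had 50.7, 56.2 and 47.6 CPM in CTSV shRNA libraries, against 58.1, 67.2 and 61.5 CPM in control libraries (log2 fold change -0.27, edgeR adjusted p = 0.0036). RBMX, an RNA-binding protein encoded on the X chromosome, had 289.8, 274 and 284 CPM, against 302, 294 and 312 CPM in control libraries. All its CTSV shRNA libraries were lower, and at a log2 fold change of -0.10 the edgeR adjusted p was 0.088. It was called lower with length and GC offsets (-0.19, edgeR adjusted p = 0.00027), with all deposited entries kept (-0.13, edgeR adjusted p = 0.025) and without control replicate 2 (-0.12, edgeR adjusted p = 0.037). With the offsets the median of protein-coding genes at a mean of 10 CPM or more was -0.16. The RBMX retrocopy RBMXL1, which shares 8.93% of RBMX's 50-base stretches, was not called, nor were TRA2A and TRA2B. PQBP1, a polyglutamine-binding protein, had 66.7, 64.7 and 58.4 CPM, against 75.2, 84.3 and 72.6 CPM in control libraries, a log2 fold change of -0.29. DDX5, an abundant RNA helicase, had 582, 588 and 587 CPM, against 569, 577 and 568 CPM in control libraries, and was not called although its CTSV shRNA libraries were all slightly above its controls. RP9 was not called at a mean of 6.2 CPM in CTSV shRNA libraries and 8.5 CPM in control libraries.

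Members with a short summed exon length fell most often. Exon length here is the summed length of all annotated exons of a gene in GENCODE v29. Of 20 members under 2000 bases, 16 fell, or 80.0%, and none rose, against 63.5% lower and 6.05% higher among protein-coding genes at 10 CPM or more in the same class. Between 2000 and 5000 bases, 28 of 40 members fell, or 70.0%, and none rose, against 43.1% lower and 11.5% higher. Over 5000 bases, 12 of 47 members fell and 5 rose, or 25.5% and 10.6%, against 25.5% and 24.3%. The members that fell had a median exon length of 3206.5 bases, those that rose 8102 bases and those not called 5701 bases. Spearman's rho between log2 fold change and exon length was 0.63 over the 107 members and 0.33 over the 9083 protein-coding genes, a description across genes that share the same 6 libraries and are not independent. SF3B5, PHF5A and LSM7 are at the short end, and SF3B1, PRPF8 and SNRNP200 at the long end. A fit with loess offsets for exon length and GC content called 78 members lower and 4 higher, with a median log2 fold change of -0.29. In that fit 29.4% of all genes tested were lower and 14.3% higher, and its calls were 32.7% higher, against 46.4% in the fit without offsets. The median over all genes tested was -0.07 with offsets and 0.02 without. Of the 9083 protein-coding genes at a mean of 10 CPM or more, 4217 were lower and 1180 higher with offsets. Their median was -0.16 with offsets and -0.07 without. All 56 members that fell were also lower with offsets, as were 22 of the 46 not called without them. With offsets rho was still 0.56 over the members and 0.22 over the 9083 protein-coding genes. The offsets thus did not remove the whole trend with exon length.

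**Figure D4:**
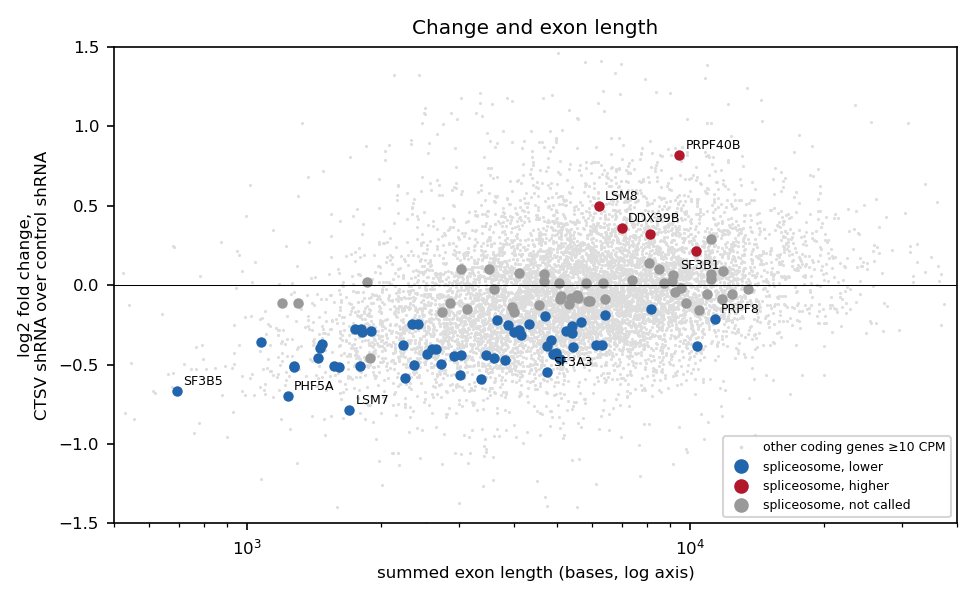
Log2 fold change (CTSV shRNA over control shRNA, 3 libraries each) against summed exon length (bases, log axis) for the 107 spliceosome genes, coloured by call, over grey points for other protein-coding genes at 10 CPM or more; grey points beyond the axes are not drawn. The members that fell lie mostly to the left, and the 5 that rose all lie over 5000 bases.

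Some values are uncertain because genes overlap and the sources used here do not state whether counting used strand. A total of 36 members overlap another gene of the table whose CPM reached 10% of their own or more. Of these, 20 fell and 2 rose (THOC1, which overlaps USP14, and PRPF40B, which overlaps FMNL3). Among the 71 members without such an overlap, 36 fell and 3 rose. Of protein-coding genes at 10 CPM or more, with or without an overlap, 33.9% were lower and 18.6% higher. The part of overlapping genes in the calls was not tested. Other genes named here with such an overlap on the opposite strand and a call are LSM7, LSM3, SNRPD3, SNRPD2, ALYREF, BUD31, CCDC12, SNU13, SNRPA, PRPF4, PCBP1, PQBP1, CHERP, PPIL1, PRPF31, PRPF38A, SNW1 and TXNL4A. Those without a call are ACIN1, DDX42, DDX5, DHX16, DHX38, DHX8, PPIE, SF3A2 and USP39. SNRNP27, ZMAT2, RBM8A and RBMXL1 overlap a gene on the same strand.

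Proteins that build snRNPs outside the pathway entry were compared as well. Of 17 listed genes of the SMN complex, the methylosome, cap hypermethylation and import, 16 were tested. Of these, 8 fell and none rose (median log2 fold change -0.20). Over all genes tested, 21.6% were lower and 18.7% higher, and over protein-coding genes at 10 CPM or more 33.9% and 18.6%. The methylosome dimethylates arginines of Sm proteins before the SMN complex loads the ring on snRNA. PRMT5, its methyltransferase, had 26.8, 24.2 and 22.2 CPM in CTSV shRNA libraries, against 40.3, 37.9 and 31.1 CPM in control libraries (log2 fold change -0.58, edgeR adjusted p = 1.3e-05). CLNS1A, the chaperone pICln that brings Sm proteins to PRMT5, had 63.0, 68.4 and 60.3 CPM, against 77.2, 85.7 and 83.9 CPM in control libraries, a log2 fold change of -0.36. STRAP, an SMN-complex protein, had 142, 148 and 142 CPM, against 172, 176 and 172 CPM in control libraries, a log2 fold change of -0.27. All 3 were lower in each CTSV shRNA library than in any control. COPRS, GEMIN2, TGS1, GEMIN5 and SMN1 also fell, with log2 fold changes from -0.64 to -0.29, and SMN1 shares 86.5% of its 50-base stretches with SMN2, so its value is uncertain.

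The minor spliceosome removes a small class of introns with U11 and U12 snRNPs. Of 12 listed proteins, 11 were tested, 2 fell and 1 rose (median log2 fold change -0.08). The shares lower and higher were 18.2% and 9.09%. Over all genes tested they were 21.6% and 18.7%, and over protein-coding genes at 10 CPM or more 33.9% and 18.6%. ZCRB1 had 63.4, 51.7 and 45.4 CPM in CTSV shRNA libraries, against 74.6, 63.4 and 67.8 CPM in control libraries, a log2 fold change of -0.36. SNRNP48 fell by 0.16 (66.1, 71.9 and 74.3 CPM, against 77.8, 78.9 and 81.0 CPM in control libraries), with an edgeR adjusted p of 0.042. The log2 fold change of SNRNP48 was between -0.20 and -0.12 with single libraries left out, and it stayed called only without CTSV shRNA replicate 3. DESeq2 did not call it. RNPC3 rose by 0.47, with 21.8, 25.1 and 26.3 CPM, against 22.0, 14.4 and 16.5 CPM in control libraries, and its groups overlapped.

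Of the other spliceosome proteins outside the pathway entry, 37 of 38 were tested, and 11 fell and 12 rose, with a median log2 fold change of -0.07. The shares lower and higher were 29.7% and 32.4%, against 33.9% and 18.6% of protein-coding genes at 10 CPM or more. With length and GC offsets 17 of the 37 were lower and 8 higher, and PRPF4B, PPWD1, CWC25 and LUC7L2 were no longer called higher. CLK1, a kinase of SR proteins, had 134, 136 and 127 CPM in CTSV shRNA libraries, against 92.1, 91.5 and 89.0 CPM in control libraries (log2 fold change 0.54, edgeR adjusted p = 5.9e-10). RBM5, a regulator of alternative splicing, had 98.2, 88.9 and 99.0 CPM, against 65.4, 65.7 and 65.5 CPM in control libraries, a log2 fold change of 0.54. RBM39, a U2AF2-related splicing factor, had 700.4, 705 and 728 CPM, against 558, 564 and 554 CPM in control libraries, a log2 fold change of 0.35. Every CTSV shRNA library was above every control for these 3 genes. With offsets for length and GC content their log2 fold changes were 0.41, 0.41 and 0.19, and all 3 remained called higher.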

How the data were processed

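RNA-seq counts of 6 Huh7 libraries were used, 3 with CTSV shRNA and 3 with control shRNA. RNA was isolated by TRIzol and prepared with an NEBNext Ultra II mRNA kit, per the labels' protocols. The build hg38 and the tools HISAT2, StringTie and SAMtools are named in the submitters' processing notes. The sources used here do not state the counting tool, the annotation, the use of strand or the handling of reads with several matches. The authors deposited raw whole-number counts per gene, and beside them their own log2 fold changes, p-values and adjusted p-values, whose test is not stated.

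The 28915 table entries held 27394 names. Of these, 127 names stood on more than 1 entry with identical values, and 1521 entries were removed. Groups were compared with edgeR 4.0.16 under R 4.3.3 (quasi-likelihood test, TMM, filterByExpr by group, no covariate), with Benjamini-Hochberg adjustment over all 15968 genes tested. The common dispersion gave a biological coefficient of variation of 6.87%. SEs come from the F statistic. The script was tested on simulated data. The spliceosome genes, their roles and the other lists were chosen with earlier results of these data known, so no p-value was adjusted over a list. Values in every library are given, per role, for up to 4 called members of smallest adjusted p and the member of highest CPM per kilobase, for up to 3 called genes of each other list, and for near copies. Any others shown were chosen after their values were seen. Alternatives were RLE size factors, DESeq2 1.42.0, no low-count filter, a mean CPM of at least 1, a replicate block, length and GC offsets (loess span 0.5), all entries kept, no mitochondrial genes, and each library left out. Some members are not reported here by name.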

Additional observations from a re-analysis of the deposited data

How the results depend on the processing

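The split of the members held in each alternative run. With each library left out in turn, 52 to 55 members were lower and 5 higher, and the median log2 fold change lay between -0.23 and -0.20. Of the 61 called members, 52 stayed called in all of these, and LSM5, LSM6, SNRPA, SMNDC1, DHX15, SART1, PPIL1, CDC5L and MAGOH did not. The edgeR adjusted p was up to 0.12 for LSM5 and 0.13 for SNRPA (both without control replicate 2) and 0.29 for LSM6 (without CTSV shRNA replicate 3). It was 0.065 for SMNDC1 and 0.061 for DHX15 without CTSV shRNA replicate 1, 0.083 for SART1 without CTSV shRNA replicate 3, 0.097 for CDC5L without CTSV shRNA replicate 2, 0.089 and 0.062 for PPIL1 without control replicate 2 and without CTSV shRNA replicate 3, and 0.074 for MAGOH without control replicate 1. DESeq2 called 55 lower and 5 higher, RLE size factors, a mean CPM of at least 1 and no mitochondrial genes each 56 and 5, no low-count filter 57 and 5, and all deposited entries kept 61 and 5. The replicate numbers did not pair the libraries (correlations of same-numbered libraries -0.0173, 0.0387 and 0.133 over 9422 genes). The replicate block gave 57 lower and 5 higher members, and 3490 lower and 2996 higher genes of all tested, against 3451 and 2982 without it. With length and GC offsets and the block, 80 members were lower and 4 higher. With 3 libraries a group, changes of low genes such as RP9 and U2AF1 were not measured precisely.

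With the offsets, without and with the replicate block, the lower calls were 4 and 4 in the U1 group, 4 and 4 in the catalytic group, 3 and 3 in the other common factors, and 17 and 18 in the other spliceosome proteins outside the pathway entry. The block with offsets gave 19 lower in the U2 group, and 2 lower in the 3 other members, where the replicate block alone and no low-count filter also gave 2. All entries kept gave 2 lower in the catalytic group and 2 in the other common factors. DESeq2 gave 1 lower minor spliceosome protein. The members' median was -0.23 with no filter, -0.29 and -0.29 with offsets without and with the block, and -0.25 with all entries kept. With libraries left out, lower calls were 1 to 2 in U1, 1 to 3 in the catalytic group, 1 to 2 in the other common factors, 1 to 2 in the other members, 1 to 2 in the minor spliceosome and 7 to 12 in the other spliceosome proteins (7 without control replicate 2). The 4 genes whose log2 fold change turned sign were not called without offsets. With offsets, without and with the block, SF3B1 was -0.0884 and -0.0888 (the second called lower, edgeR adjusted p = 0.031), and DDX5 was -0.0687 and -0.0683. DHX38 was -0.00625 with no filter, -0.0206 and -0.0200 with offsets without and with the block, and -0.0189 with all entries kept, and ranged from -0.0165 to 0.040 with libraries left out. ACIN1 was -0.0452 and -0.0462 with offsets, -0.00304 with all entries kept, and ranged from -0.0151 to 0.059 with libraries left out. The cause was not tested.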
